A study of Homo sapiens with 12 samples.

Results

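The ephrin genes and EPHA2 are 9 of the 33093 genes kept from the count table. They comprise the ephrin-A genes EFNA1, EFNA2, EFNA3, EFNA4 and EFNA5, the ephrin-B genes EFNB1, EFNB2 and EFNB3, and the receptor gene EPHA2. EFNA1 was chosen by its rise with TNFα in the counts of these same samples, so its values are given below as a description with no test in any comparison. The other ephrins were taken by family name, and the selection does not say why EPHA2 alone was taken from the Eph receptors. All 9 genes passed the filter on low counts, which kept 14383 genes, with at least 27 counts in every sample.

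RNA was sequenced from HEK293T cells, a human embryonic kidney line, in 4 groups of 3 samples. WT cells and NFKB1 S80A cells were either untreated or given 10 ng/ml TNFα for 3 h. The S80A cells carry a CRISPR/Cas9 knock-in that replaces a serine of the NF-κB subunit p50 with alanine, and were derived from clones whose number is not given in the sources used here. Gene counts cannot check the edit itself, and traits of a clone other than the edit cannot be separated from it. In bulk RNA, fewer cells that express a gene and less RNA per cell cannot be told apart either. The question of the study is how this serine bears on transcription induced by TNFα. Total counts per sample ran from 15624878 to 20889577.

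Ephrins are membrane-bound ligands of the Eph receptor tyrosine kinases, and contact between neighbouring cells brings ligand and receptor together. Ephrin-A proteins are held by a lipid anchor and mainly bind EphA receptors, whereas ephrin-B proteins span the membrane and mainly bind EphB receptors. Binding signals into both cells and commonly leads to repulsion, changes of the actin cytoskeleton and the sorting of cells at boundaries. EFNA1 was first described as a transcript induced by TNFα in endothelial cells, and EPHA2 encodes its best known receptor.

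The labelled treatment was visible in known NF-κB targets. Of 10 genes listed as a check, 9 were tested, and 7 rose with TNFα in WT cells and 8 in S80A cells, beside 0.688% and 1.26% of all genes called. The list was chosen with earlier results of these data known, so these counts are no independent check of the treatment. NFKBIA, which encodes the inhibitor IκBα, rose by a log2 fold change of 3.52 (SE 0.10) in WT cells and 3.66 (SE 0.10) in S80A cells. RELB, an NF-κB subunit gene, rose by 5.15 (SE 0.14) and 5.47 (SE 0.14). The others past the threshold in both genotypes were TNFAIP3, NFKB2, IER3, CXCL1 and IL8, now named CXCL8, and BIRC3 was past it in S80A cells, where the interaction for this gene was 0.84 (SE 0.67, edgeR, adjusted p = 0.911). TRAF1 was not called in either genotype and ICAM1 was not tested because of low counts.

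Per transcript length, EFNB2 and EFNB1 were the most abundant ligand genes in untreated WT cells. Levels between genes are compared as CPM, read counts scaled to library size by TMM, per kilobase of the canonical transcript. On this scale EFNB2 was at 9.59 ± 0.145 (SD, n = 3) and EFNB1 at 9.12 ± 0.197. EFNA4 followed at 6.06 ± 0.506, EFNA3 at 4.83 ± 0.755 and EFNB3 at 4.55 ± 0.711. EPHA2 stood at 4.28 ± 0.505, EFNA1 at 4.07 ± 0.409, EFNA5 at 3.50 ± 0.221 and EFNA2 at 0.953 ± 0.161. From EFNA4 down to EFNA5, neighbours in this order lay within their spread of each other, so EFNA1, in rank 7 of 9, was not separated from the genes next to it. The order also depends on the length used. Per kilobase of coding sequence EFNA5 was at 27.4, close to EFNB1 at 28.9, and EPHA2 was at 5.77, below EFNA1 at 10.2.

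Among the 13 other Eph receptor genes, EPHB4, a receptor for ephrin-B2, had the highest level per kilobase in untreated WT cells, 20.5 ± 0.254. EPHA7 was at 6.76 ± 0.126 and EPHA4 at 3.82 ± 0.666, above EPHA3 at 2.68 ± 0.260, EPHB2 at 1.91 ± 0.118 and EPHA8 at 1.61 ± 0.0882. The levels of EPHB3, EPHA10, EPHB1, EPHA6, EPHB6 and EPHA5 ran from 0.664 down to 0.141. EPHA1 had at most 2 counts in any sample and was not tested.

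**Figure D1:**
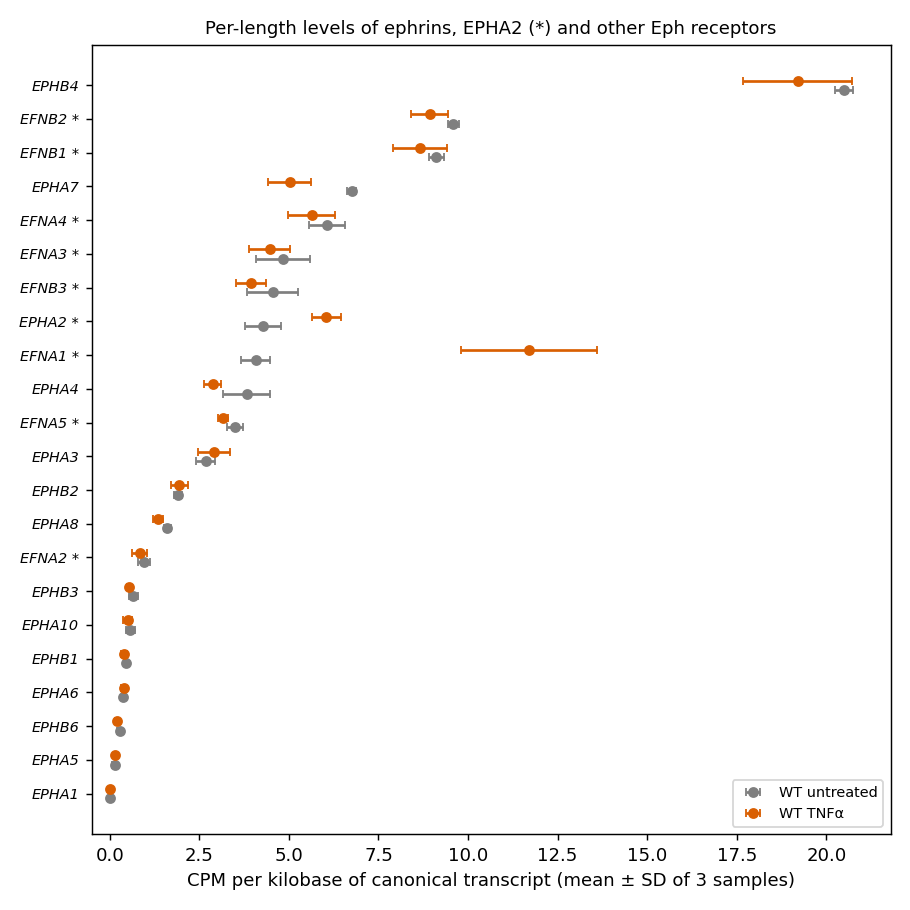
Levels of the 8 ephrin genes, EPHA2 (asterisks) and the 13 other Eph receptor genes in WT cells, as CPM per kilobase of canonical transcript on the horizontal axis, with points for the mean of 3 samples and bars for the SD. EFNA1 lies at 4.07 in untreated cells and at 11.7 after TNFα, next to EPHB4 at 20.5 and 19.2.

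EFNA1 is a gene of 5 exons at 155127876 to 155134899 on chromosome 1 (GRCh38), read from the plus strand. In untreated WT cells it was at 5.64, 6.90 and 6.40 CPM in replicates 1 to 3. After TNFα the WT samples were at 21.4, 15.8 and 17.1 CPM. Every treated WT sample was above every untreated one, and replicate 1 was the highest of the treated samples.

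In untreated S80A cells EFNA1 was at 7.20, 6.22 and 6.79 CPM, overlapping the untreated WT samples. After TNFα it was at 41.2, 28.9 and 30.2 CPM. All 3 treated S80A samples were above all 3 treated WT samples, and replicate 1 was again the highest. As a description, the log2 fold change with TNFα was 1.51 (SE 0.16) in WT cells and 2.31 (SE 0.16) in S80A cells, which correspond to 2.86-fold and 4.95-fold.

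**Figure D2:**
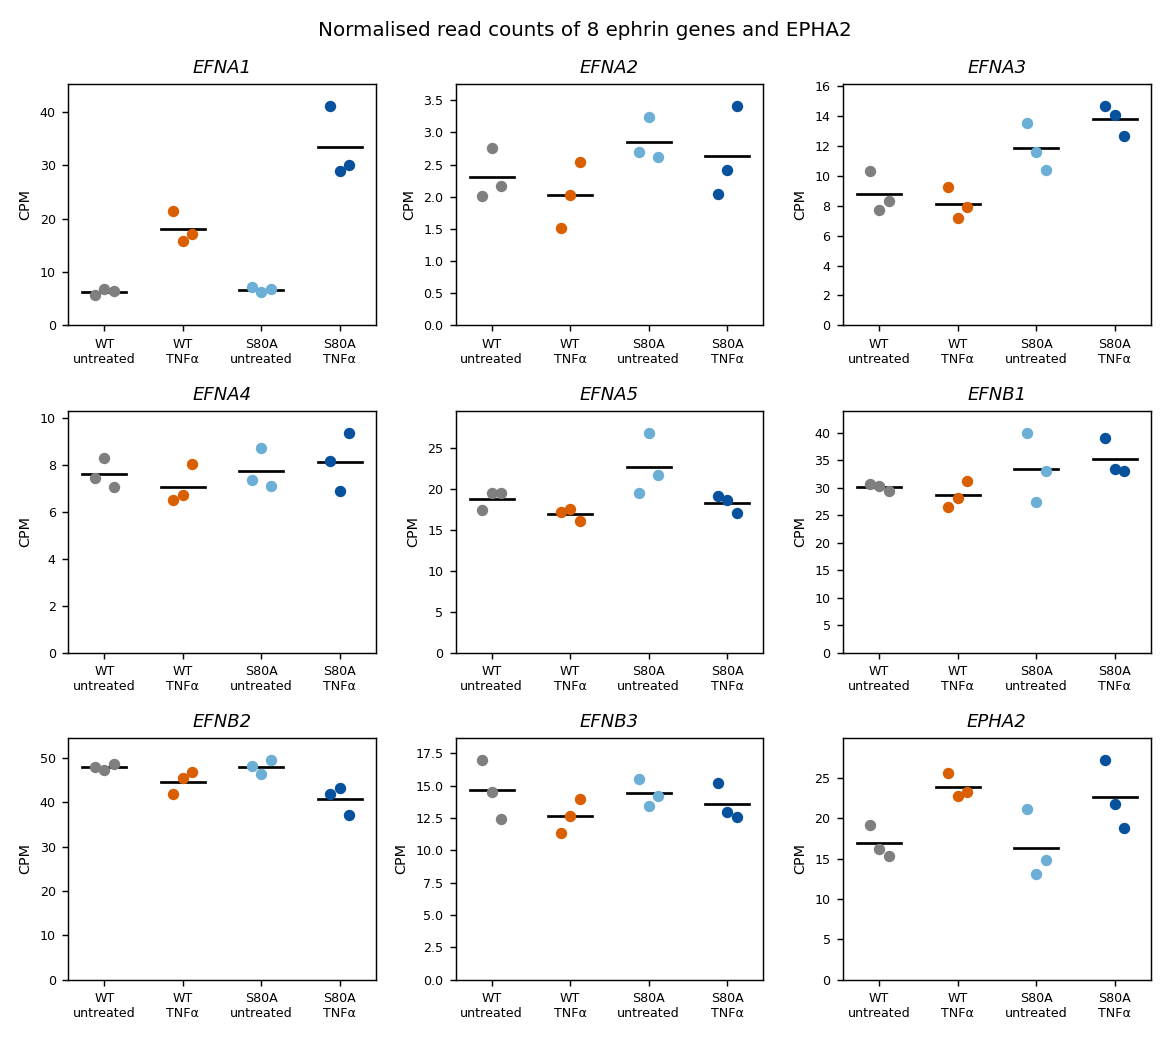
CPM of the 9 genes in each of the 12 samples, with a panel per gene, groups on the horizontal axis, points for samples and lines for group means. EFNA1 moves from 5.64 to 6.90 CPM in untreated WT samples to 28.9 to 41.2 CPM in treated S80A samples, while EFNB2 stays between 37.1 and 49.5 CPM.

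EFNA1 was chosen by its rise with TNFα, so its larger share of the ephrin transcripts after TNFα is given as a description. As a share of the summed per-kilobase level of the 8 ephrin genes, EFNA1 made up 9.54% ± 1.03 (SD, n = 3) in untreated WT cells and 24.6% ± 3.67 after TNFα. In S80A cells the share was 9.30% ± 0.435 without and 33.9% ± 3.31 with TNFα. The sum itself was 42.7 ± 1.16 in untreated and 47.3 ± 1.97 in treated WT cells, and 46.6 ± 2.28 and 63.1 ± 6.40 in S80A cells. Per kilobase of transcript EFNA1 ranked first among the 9 genes after TNFα in both genotypes, at 11.7 ± 1.89 in WT and 21.5 ± 4.37 in S80A cells. This place and the shares above depend on the length used. Per kilobase of coding sequence EFNA1 was at 29.3 in treated WT cells, below EFNB2 at 44.5, and at 54.1 in treated S80A cells, above EFNB2 at 40.6. By CPM without length it was below EFNB2 in both, at 18.1 against 44.6 and 33.4 against 40.7.

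No other ephrin was called for TNFα. In WT cells 99 of 14383 genes were called (0.688%), and 0 of the 8 genes other than EFNA1 were among them. In S80A cells 181 genes were called (1.26%), again with 0 of these 8. The median log2 fold change of the 7 ephrins other than EFNA1 was -0.11 in WT and -0.08 in S80A cells, beside a median of 0 over all genes tested in each. EFNB2, the ligand of EPHB4 in vessel formation, was at 47.2 to 48.7 CPM in untreated and 41.8 to 46.7 CPM in treated WT samples, and at 46.3 to 49.5 and 37.1 to 43.1 CPM in S80A samples. These groups did not overlap, but the log2 fold changes of -0.10 (SE 0.08, edgeR, adjusted p = 0.997) and -0.24 (SE 0.08, edgeR, adjusted p = 0.294) did not pass. The share of all genes whose groups separate in this way is not given, so a lack of overlap, here and below, is a description only. EFNA5, an axon guidance ligand, had log2 fold changes of -0.15 (SE 0.12) and -0.31 (SE 0.12), with an adjusted p of 0.363 for the latter by edgeR. EFNA2, EFNA3, EFNA4, EFNB1 and EFNB3 had values between -0.21 and 0.22 in the 2 genotypes.

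EPHA2 lies on the minus strand of chromosome 1, from 16124337 to 16156069. In WT cells it was at 19.2, 16.2 and 15.4 CPM without and 25.6, 22.7 and 23.3 CPM with TNFα, so that the groups did not overlap. In S80A cells it was at 21.1, 13.2 and 14.8 CPM without and 27.2, 21.7 and 18.8 CPM with TNFα, where replicate 1 was the highest in both groups and the untreated and treated samples overlapped. The log2 fold change was 0.50 (SE 0.17, edgeR, adjusted p = 0.454) in WT and 0.46 (SE 0.17, edgeR, adjusted p = 0.349) in S80A cells. These calls depend on the fit. In WT cells EPHA2 passed with only the 6 samples compared (adjusted p = 0.0474) and with GC correction and a replicate block (0.00498). In S80A cells it passed with the latter (0.0413) and without S80A untreated replicate 1 (0.0395). Averaged over both genotypes, a comparison added after the data were seen in which 312 genes were called (2.17%), it was 0.48 (SE 0.12, 95% CI 0.23 to 0.73), higher in treated than untreated means in both genotypes but with an adjusted p of 0.0516 by edgeR. This value fell on the other side of the threshold under several alternatives: 0.00661 by the DESeq2 test, 0.00443 with no filter, 0.00291 with the replicate block, 0.0312 with GC correction, 0.000547 with both, 0.00349 without S80A untreated replicate 1 and 0.0281 without S80A TNFα replicate 3, in a range from 0.000547 to 0.149 over all alternatives. An overlapping antisense gene could share its reads, since the strand setting of the counting is not given in the sources used here.

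Among the other receptors EPHA7 fell with TNFα in S80A cells, as 1 of 12 tested beside 1.26% of all genes. EPHA7, a receptor for A ephrins that shapes cortical and retinal maps, was at 51.8, 59.6 and 57.7 CPM in untreated and 29.9, 41.7 and 35.7 CPM in treated S80A samples. Its log2 fold change there was -0.66 (SE 0.12, edgeR, adjusted p = 0.00818), lower in 3 of 3 treated samples, and without S80A TNFα replicate 1 the adjusted p was 0.0515 at a log2 fold change of -0.54, within a range of 0.00376 to 0.0515 over the left-out samples; the fit to only the 6 samples compared gave 0.0902. In WT cells it was at 45.7, 44.2 and 44.4 CPM without and 33.4, 37.1 and 29.3 CPM with TNFα. There the log2 fold change was -0.43 (SE 0.12, edgeR, adjusted p = 0.196), with lower values in 3 of 3 treated samples. It passed by the DESeq2 test (adjusted p = 0.0486), with GC correction (0.0209) and with GC correction and the replicate block (0.0145). The interaction of -0.23 (SE 0.16, edgeR, adjusted p = 0.911) did not pass, so the fall is not shown to be limited to S80A cells. Untreated S80A samples were all above untreated WT samples, while the treated samples of the genotypes overlapped, and EPHA7 was called in neither comparison of genotypes. Averaged over both genotypes EPHA7 was at -0.54 (SE 0.08, edgeR, adjusted p = 0.00135) and EPHA4, a receptor that binds ephrins of both classes, at -0.49 (SE 0.10, edgeR, adjusted p = 0.0167). In WT cells alone EPHA4 was at 21.3 to 29.1 CPM without and 16.8 to 19.9 CPM with TNFα, and was not called there in the main fit or in any alternative. In S80A cells alone EPHA4 was at 34.6, 26.5 and 36.3 CPM without and 21.0, 24.8 and 20.0 CPM with TNFα, a log2 fold change of -0.57 (SE 0.14, edgeR, adjusted p = 0.0848). It passed there by the DESeq2 test (adjusted p = 0.0158), with no filter (0.0138) and without S80A untreated replicate 2 (0.0111), so the count of receptors that fell depends on the fit. For the averaged value of EPHA4 the adjusted p rose above 0.05 on leaving out WT TNFα replicate 2 (0.0535), WT TNFα replicate 3 (0.0568), S80A untreated replicate 3 (0.0593) or S80A TNFα replicate 1 (0.0508).

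**Figure D3:**
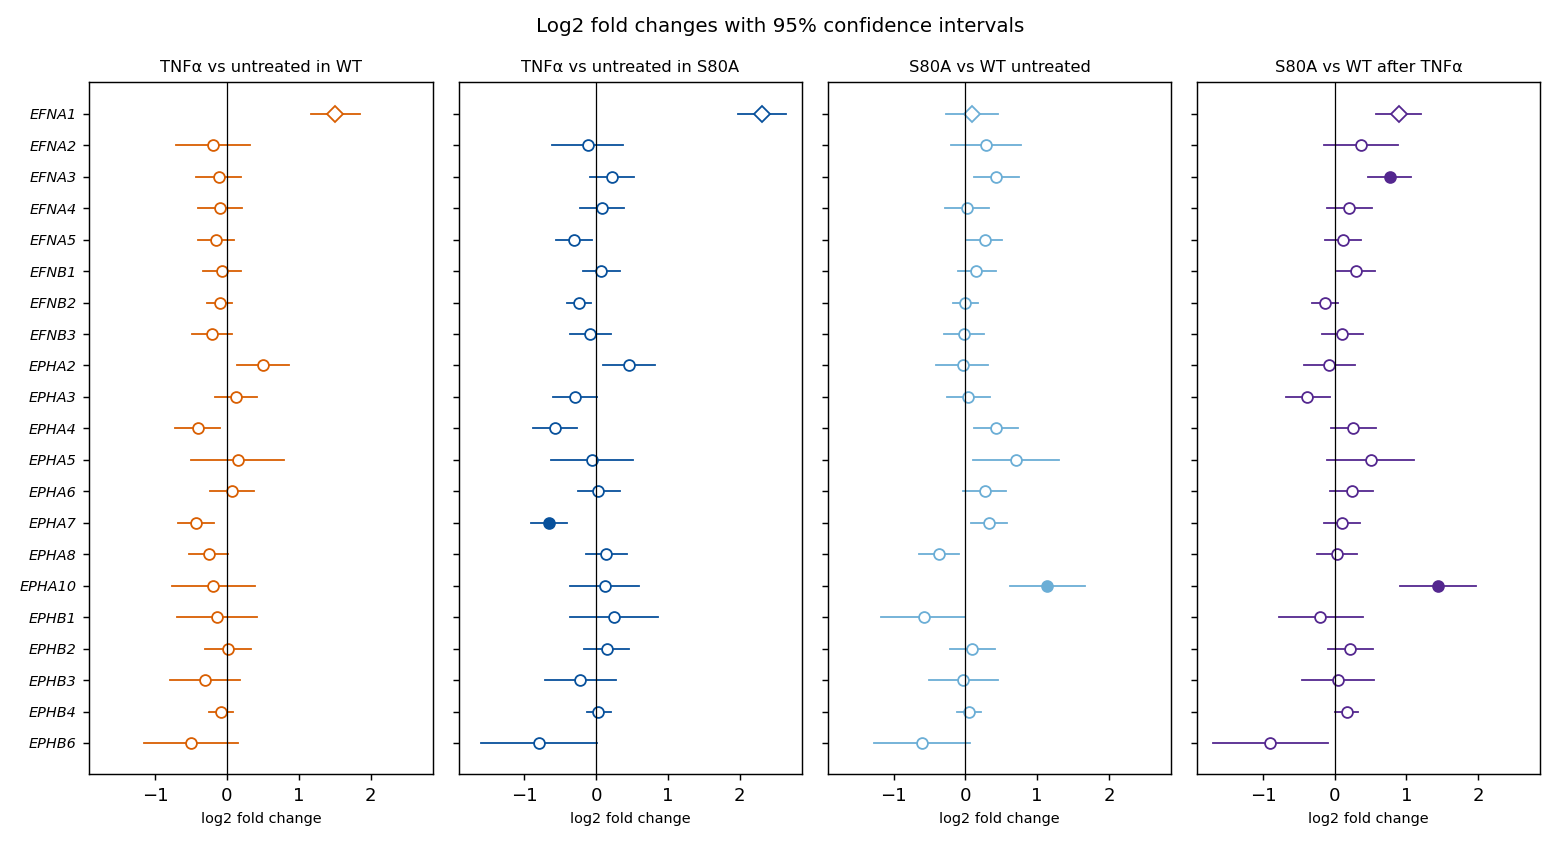
Log2 fold changes with 95% confidence intervals for the 9 genes and the 12 tested Eph receptors in 4 comparisons; filled circles passed an adjusted p of 0.05, open circles did not, and open diamonds mark EFNA1, which was not tested. EFNA3 is filled in the comparison of genotypes after TNFα, at 0.77, and EPHA10 in both comparisons of genotypes. The intervals of EFNA1 are a description and no test.

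Without TNFα 900 genes were called between the genotypes (6.26%), and 0 of the 8 genes other than EFNA1 were among them. EFNA1 differed by a log2 value of 0.09 (SE 0.17). EFNA3 had the largest estimate of the 9, with 10.3, 7.72 and 8.29 CPM in WT and 13.5, 11.6 and 10.4 CPM in S80A cells. All 3 S80A samples were above all 3 WT samples, but the lowest S80A value lay next to the highest WT value and the log2 difference of 0.43 (SE 0.14, edgeR, adjusted p = 0.0977) did not pass. It passed with the replicate block (adjusted p = 0.0250) and with GC correction and the block (0.0131).

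After TNFα 1058 genes were called between the genotypes (7.36%), and of the 8 genes other than EFNA1 only EFNA3 was among them, higher in S80A cells. The level of EFNA1 was 1.85 times that in WT cells, a log2 difference of 0.89 (SE 0.15), with 3 of 3 S80A samples above every WT sample. The treated samples entered the choice of EFNA1, so this value is a description and was not tested. The interaction, which is the difference between the TNFα responses of the genotypes, was 0.79 (SE 0.22) for EFNA1 and is given with no test. Over all genes edgeR called 0 interactions (0%), with 520 genes at an unadjusted p under 0.05, and DESeq2 also called 0.

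EFNA3, at 155078837 to 155087538 on the same chromosome and strand as EFNA1, encodes a ligand for several EphA receptors. After TNFα it was at 9.24, 7.19 and 7.92 CPM in WT and 14.7, 14.1 and 12.6 CPM in S80A cells, with no overlap. The log2 difference was 0.77 (SE 0.14, 95% CI 0.46 to 1.07, edgeR, adjusted p = 0.00551). Its interaction of 0.33 (SE 0.20, edgeR, adjusted p = 0.911) did not pass, so a difference between the untreated and treated contrasts was not shown. EFNB1, mutated in craniofrontonasal syndrome, was at 26.4 to 31.3 CPM in WT and 33.0 to 39.1 CPM in S80A cells after TNFα, without overlap, at 0.30 (SE 0.12, edgeR, adjusted p = 0.167). The remaining 6 genes had log2 differences from -0.13 for EFNB2 to 0.36 for EFNA2, and the median over the 8 genes other than EFNA1 was 0.16 beside 0 over all genes tested.

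EPHA10, which encodes a receptor without kinase activity, was called in both comparisons of genotypes, as 1 of 12 receptors tested in each, beside 6.26% of all genes without and 7.36% with TNFα. It was at 2.40, 3.62 and 3.45 CPM in untreated WT and 8.55, 5.18 and 7.07 CPM in untreated S80A cells. After TNFα it was at 1.96, 3.14 and 3.22 CPM in WT and 9.71, 6.11 and 6.77 CPM in S80A cells. The groups did not overlap in either condition. The log2 difference was 1.14 (SE 0.24, edgeR, adjusted p = 0.0128) without and 1.44 (SE 0.25, edgeR, adjusted p = 0.0034) with TNFα, and without WT untreated replicate 1 the former had an adjusted p of 0.0569, in a range of 0.0034 to 0.0569 over the left-out samples.

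Of 44 genes that act with or downstream of Eph receptors, 41 were tested, and none was called for TNFα in WT or S80A cells, beside 0.688% and 1.26% of all genes, or in the interaction, where no gene was called by edgeR. Between genotypes 2 of 41 were lower in untreated S80A cells, beside 6.26% of all genes called, and 2 were higher and 1 lower after TNFα, beside 7.36%. The median over the list was 0.03 and 0.05, beside 0.01 and 0 over all genes tested. The adaptor gene GRB2 was lower, by a log2 difference of -0.28 (SE 0.08, edgeR, adjusted p = 0.0415) without and -0.29 (SE 0.08, edgeR, adjusted p = 0.0331) with TNFα. LIMK1, a kinase that acts on cofilin, was at -0.38 (SE 0.10, edgeR, adjusted p = 0.0446) without TNFα, and CHN2, which encodes a chimaerin, at 0.47 (SE 0.13, edgeR, adjusted p = 0.0427) after it. The other gene of the list that was higher after TNFα, which is not named here, was at 0.90 (SE 0.17, edgeR, adjusted p = 0.00524). It stayed past the threshold in every alternative run, with adjusted p up to 0.0309, so the calls of the list differed in stability. The calls of GRB2, LIMK1 and CHN2 were lost on leaving out most of the samples in turn, with adjusted p up to 0.201, 0.195 and 0.110.

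Other genes separated the 2 genotypes as well, and their part in the differences of EFNA1, EFNA3 and EPHA10 was not tested. NEFM, a neurofilament gene that HEK293 cells express, had 1774 to 2165 counts in WT and 3 to 6 counts in S80A samples. Summed over the 7 markers of HEK293 cells, led by VIM, the level was 807, 767 and 782 CPM in untreated WT, 1000, 908 and 948 in treated WT, 671, 796 and 630 in untreated S80A and 895, 848 and 889 in treated S80A samples. All 7 had more than 3 counts in some sample. The 4 fibroblast markers, of which 3 had more than 3 counts and COL1A1 was the most abundant, summed to 15.0, 16.2, 17.0, 14.9, 15.5 and 16.0 CPM in the WT samples and to 6.60, 7.84, 7.73, 6.73, 8.53 and 8.28 CPM in the S80A samples, with DCN at 0 or 1 count.

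Markers of other cell types were low or shared with the line itself. The 4 epithelial markers, led by KRT18 and all detected, summed to 42.8 to 50.3 CPM in WT and 51.4 to 61.5 CPM in S80A samples. KRT18 alone made the higher sum, at 31.2 to 38.9 CPM in WT and 44.8 to 54.9 CPM in S80A samples. CDH1, which encodes E-cadherin, went the other way, from 3.86 to 6.07 CPM in WT and from 1.56 to 3.33 CPM in S80A samples, EPCAM was at 0.724 to 1.28 and 0.347 to 0.796 CPM, and KRT8 was not higher in S80A samples. Of 5 blood markers 2 had more than 3 counts, PTPRC and CD3E were at 0 in every sample, and the list, led by CD68, summed to 3.04 to 4.80 CPM. The 4 endothelial markers, of which 1 had more than 3 counts and KDR was the most abundant, summed to 0.106 to 0.468 CPM with PECAM1 at 0 or 1 count.

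EFNA4, EFNA3 and EFNA1 lie in this order on the plus strand of chromosome 1, with starts 64.1 and 49.0 kb before that of EFNA1. EFNA4 runs from 155063737 to 155069553, and a readthrough gene joining EFNA4 and EFNA3 is annotated, so reads of these genes could be split or lost in the counting. Of 13 neighbours of EFNA1 found in the count table, 10 were tested, and 0 were called for TNFα in WT or S80A cells, beside 0.688% and 1.26% of all genes, so few calls would be found in so short a list in any case. They had log2 fold changes from -0.47 to 0.05 and from -0.24 to 0.23. SLC50A1, a sugar transporter gene whose start lies 7.5 kb after that of EFNA1, was at -0.08 (SE 0.09) and 0.04 (SE 0.09). EFNA4 was at -0.10 (SE 0.15) and 0.08 (SE 0.14). Between the genotypes EFNA3 was the called neighbour after TNFα, and EFNA4, between ADAM15 and EFNA3, differed by 0.20 (SE 0.15, edgeR, adjusted p = 0.453).

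Since NF-κB dimers bind κB motifs, the starts of the 9 genes were searched on both strands for the κB consensus, a motif of 10 letters. In the RefSeq promoters on GRCh38, 250 bases before to 50 after each start, 8 of the 9 genes had an entry, and 1 of these, EFNA2, held a match, beside 5.91% of 35116 promoters. The 250 bases before the start of EFNA1 (chr1:155127626-155127875, plus strand) are shown because EFNA1 had the largest TNFα response of the 9 and no match is in them.
EFNA1 promoter: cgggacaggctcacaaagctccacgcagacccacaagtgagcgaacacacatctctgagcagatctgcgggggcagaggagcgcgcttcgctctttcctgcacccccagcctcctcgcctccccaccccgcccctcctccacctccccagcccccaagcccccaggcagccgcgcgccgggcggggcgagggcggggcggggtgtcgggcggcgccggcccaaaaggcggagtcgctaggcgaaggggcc

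Within 5 kb on either side of the start, a window added after the data were seen, 8 of the 9 genes held a match, all but EFNB2, beside 69.6% of 20003 protein-coding genes. EFNA1 held 3, at -2632, 712 and 4940 bases from its start. The match at 712 bases lies in intron 1 and reads GGGACTTTCC on the strand opposite to the gene, a 10-letter word that 2.62% of the genes have within 5 kb, against 6.19% and 6.23% for the words of the other matches. EFNA2, which was not called for TNFα, holds more matches than EFNA1, among them a word that 1.47% of the genes have. In EPHA2 a match 3166 bases after the start, also in intron 1, reads GGGAATTTCC on the strand of the gene, a word that 2.55% of the genes have, and overlaps a match on the opposite strand. Both stretches are shown on the strand of the gene, with the match in capitals, as examples picked after the matches were seen. A match is a description of letters and does not show binding.
EFNA1 intron 1, chr1:155128558-155128627, plus strand: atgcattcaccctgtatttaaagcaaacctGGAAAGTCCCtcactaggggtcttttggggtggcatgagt
EPHA2 intron 1, chr1:16152864-16152933, minus strand: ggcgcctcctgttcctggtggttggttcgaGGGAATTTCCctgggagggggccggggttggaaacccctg

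Among genes with a mean of at least 1 CPM over the 12 samples, those whose log2 CPM was most like that of EFNA1 were JUNB (Pearson r = 0.987), TNF (0.987), IL8 (0.981), CXCL1 (0.977) and CXCL2 (0.974), of 13057 compared. The samples fall into treated and untreated groups and EFNA1 was chosen by its rise between them, so genes that rise with TNFα come first by that choice and the values are a description only. TNF, at 0 and 0.0333 CPM in untreated WT and S80A cells, and CXCL2, at 0.0532 and 0.159 CPM, reached the mean of 1 CPM only through the treated samples, as did IL8 and CXCL1. JUNB, an AP-1 subunit gene, was at 7.87 CPM in untreated and 27.0 CPM in treated WT cells, and at 7.58 and 41.0 CPM in S80A cells. The 5 genes most like EPHA2 were AMMECR1L (0.959), EMILIN2 (0.956), CACHD1 (0.948), TNFRSF10B (0.943) and FAM53C (0.941). EMILIN2, an extracellular matrix gene, was at 20.0 and 28.8 CPM in WT and 16.1 and 25.9 CPM in S80A cells without and with TNFα.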

How the data were processed

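The authors aligned reads to GRCh38 with HISAT and counted them per gene symbol with HTSeq, and the deposited table holds raw counts; versions and counting options are not given in the sources used here. Of 33121 rows, 28 whose symbols a spreadsheet had turned into dates were left out. Lists of called genes from the authors' own comparisons hold fold changes, p-values and scaled counts and were not used. Samples were grouped by their labels, and the study describes independently generated triplicates. The description of the third WT TNFα sample names the same read file as the second; its title was followed, so which library is replicate 2 or 3 of that group is not certain in the results by replicate. Tests of EFNA1 between genotypes had been planned and were dropped, since they use the samples that chose it. Counts were fitted in R 4.3.3 with edgeR 4.0.16 (filterByExpr with a minimum count of 10, TMM, quasi-likelihood test, a mean for each of 4 groups, 8 residual degrees of freedom), with Benjamini-Hochberg adjustment over all genes tested and a threshold of 0.05. The steps were tested on simulated data. SE is the size of a log2 fold change over the square root of F. Log2 CPM used a prior count of 2. Lengths, neighbours and motifs came from GENCODE and RefSeq annotation on GRCh38. Named genes were the 9 genes, the other Eph receptors, 3 of the listed signalling genes that passed a comparison, 10 TNFα targets, up to 10 neighbours on each side of EFNA1, cell type markers, and the 5 genes most correlated with EFNA1 and with EPHA2. Members and lists were chosen with earlier results of these data known. Alternatives were the DESeq2 1.42.0 test and size factors, total counts, no filter, a floor of 10 counts throughout, a block for the replicate number, only the 6 samples compared, each sample left out, coding length or CPM for levels, another κB consensus and Spearman correlation; GC correction, the averaged TNFα comparison and wider κB windows were added after the data were seen. Counts limit genes with few reads, and replicates differed by more than counting noise. By chi-square per gene, S80A untreated replicate 2 stood furthest from its group, at 38.2 against replicate 1 and 22.4 against replicate 3. Pairs of replicates without it ran from 2.9 to 16.3.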

Additional observations from a re-analysis of the deposited data

How the results depend on the processing

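The higher EFNA3 in S80A cells after TNFα kept its direction and its side of the threshold in every alternative run. Its log2 difference ran from 0.68 to 0.87 over the left-out samples and from 0.67 to 0.79 over the other alternatives, with adjusted p up to 0.0386. For EFNA1, which was not tested, the difference ran from 0.71 to 1.02 and from 0.85 to 0.92.

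Counts of called genes moved more. For TNFα in WT cells the 99 calls became 161 with the DESeq2 test and 65 to 145 over the left-out samples, with 65 without WT untreated replicate 1. For TNFα in S80A cells the 181 calls became 71 with only the 6 samples compared and 98 to 193 over the left-out samples, with 98 without S80A TNFα replicate 1 and 116 without S80A untreated replicate 3. For untreated S80A against WT cells the 900 calls became 456 with only the 6 samples compared and 356 to 1039 over the left-out samples, where 553, 356 and 432 remained in number without WT untreated replicates 1 to 3 and 527 without S80A untreated replicate 3. After TNFα the 1058 calls became 434 to 1646 over the left-out samples: 501 and 434 without WT TNFα replicates 1 and 2, 515, 612 and 604 without S80A TNFα replicates 1 to 3, and 1646 without S80A untreated replicate 2. Fewer samples enter the fits with samples left out, yet some of these called more genes than the full fit, such as 1646 against 1058. The cause of the changed counts was not tested. The interaction count was 0 in every alternative.

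Samples with the same replicate number did not deviate together in every pair (r from -0.099 to 0.495 over 18 pairs). Their mean r was 0.118, against -0.059 over 36 pairs with different numbers, and 5 of 12 samples correlated best with their own number. The deviations of the 4 samples numbered 1 were more alike, with a mean r of 0.285 over 6 pairs (0.116 to 0.495). The mean was 0.034 for those numbered 2 and 0.034 for those numbered 3. In the main fit the numbers were not taken to pair samples, and a shared part of the deviations is not excluded. The replicate block gave 113, 208, 1232, 1469 and 397 calls for TNFα in WT, TNFα in S80A, the genotypes untreated, the genotypes after TNFα and the averaged TNFα comparison, and an adjusted p of 0.0250 for EFNA3 in untreated cells (range over the alternatives 0.0131 to 0.347). Deviations of some samples followed GC content, with r from -0.33 in WT TNFα replicate 2 and S80A untreated replicate 2 to 0.46 in WT TNFα replicate 3. Those of others did not, such as S80A TNFα replicates 1 to 3 at 0.05, -0.06 and 0.01. GC correction with the replicate block gave 274, 1562, 1589 and 511 calls for TNFα in S80A cells, the genotypes untreated, the genotypes after TNFα and the averaged comparison; the cause was not tested.

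Estimates changed sign in 55 of 1551 results of single genes, none of them past the threshold. With GC correction, without and with the block, EFNB1 with TNFα in S80A cells went to 0 and 0, EFNB3 between untreated genotypes to 0.04 and 0.05, EPHA2 there to 0.01 and 0, and the interactions of EFNA2 to -0.09 and -0.08, of EFNB3 to 0 and -0.01 and, without the block, of EPHA7 to 0. With the block the averaged TNFα value of EFNB1 went to 0. Over the left-out samples the TNFα value in WT cells ran from -0.21 to 0.02 for EFNA3 and -0.34 to 0.01 for EPHA10. In S80A cells it ran from -0.35 to 0.05 for EFNA2, -0.03 to 0.19 for EFNA4, -0.05 to 0.22 for EFNB1 and -0.12 to 0.29 for EPHA10. Between untreated genotypes the ranges were -0.07 to 0.09 for EFNA4, -0.02 to 0.03 for EFNB2, -0.13 to 0.10 for EFNB3 and -0.27 to 0.09 for EPHA2. After TNFα they were -0.24 to 0.04 for EPHA2 and -0.02 to 0.22 for EPHA7, and for the interaction -0.16 to 0.27 for EFNA2 and -0.20 to 0.19 for EPHA2. The averaged TNFα value ran from -0.06 to 0.05 for EFNA4, -0.06 to 0.07 for EFNB1 and -0.15 to 0.06 for EPHA10. The cause of these changes was not tested. A further 50 results lost and 21 gained a call in the same direction.

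EFNA1 ranked 7 of 9 in untreated WT cells per kilobase of transcript or of coding sequence, and 8 by CPM without length. By Spearman correlation 0 of the 5 genes most like EFNA1 were the same. Matches to the κB consensus were in 1 member promoter, in 2 with the looser consensus, in 2 from 1 kb before to 200 bp after the start and in 8 within 5 kb, as wider windows and looser letters hold more matches.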
